A study of Mus musculus with 28 samples.

Results

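The mitochondrial ribosomal protein genes were followed as one family in hearts of 28 mice. A gene was a member when its annotated symbol starts with Mrpl, for the large subunit, or Mrps, for the small subunit, and each was read on its brightest probe set, by the mean of all 28 arrays. This gave 76 members, 47 Mrpl and 29 Mrps, among the 18193 genes that had a probe set with 1 symbol. The rule used the symbols and the mean level, not any difference between groups. The family itself was chosen with earlier results of these data known. The members have 156 probe sets among the 45037 tested; 34 members have 1 probe set and 42 have 2 or more. Mrpl30 and Mrpl53 have only probe sets shared with another symbol and were not analysed here.

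Total RNA from frozen heart tissue of 4 groups of 7 mice was hybridised to 1-colour arrays, 1 array per animal. The first group was untreated control mice and the second was control mice given WY14643, a compound that activates PPARalpha, the nuclear receptor that turns on fatty acid oxidation genes in heart and liver. The third group was untreated mice of the deletion strain del337TR and the fourth was del337TR mice given WY14643; the series title places the strain with resistance to thyroid hormone. The sources used here give no dose, duration, age, strain background or statement of which receptor form is deleted, nor whether the change acts in heart alone, which limits what the strain can stand for. They give no sex either, and Xist set against the Y-linked Eif2s3y placed 2, 3, 4 and 1 females in these groups in the order above. The signals are linear intensities scaled to a common trimmed mean on every array.

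Mitochondria keep their own ribosome, which translates the few messages of the mitochondrial genome, all for inner-membrane subunits of the respiratory chain and ATP synthase. Its RNAs are made inside the organelle, but its proteins are encoded in the nucleus, made in the cytosol and imported. Many of the proteins descend from bacterial ribosomal proteins, and others joined the ribosome only in mitochondria. Heart muscle is rich in mitochondria, and inherited defects in several of these genes cause cardiomyopathy. Of the 76 members, 28 are large-subunit proteins with a bacterial relative and 20 are large-subunit proteins specific to mitochondria, among them Mrps30 in spite of its symbol. A further 15 are small-subunit proteins with a bacterial relative, 9 are small-subunit proteins specific to mitochondria and 3 form the Mrps18 family. Mrps36 keeps its ribosomal name but is now assigned to the oxoglutarate dehydrogenase complex. The genes lie on 17 chromosomes.

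The promoters of the members share sequence features that the choice of members did not use. RefSeq promoter windows of 300 bases, 250 before and 50 after an annotated start on GRCm38.p6, were matched for 67 members and for 27025 genes in all. The motif CCGGAAG, bound by ETS factors such as GABPA, was found in 25 members (37.3%) and in 9.93% of all genes. The YY1 motif GCCATNTT was found in 21 members (31.3%) and in 6.96% of all genes. The motif of NRF1, a regulator of nuclear genes for mitochondria, was found with 1 base free in 12 members (17.9%) and in 5.19% of all genes, and in its strict palindromic form in 3 members (4.48% against 1.07%). At least 1 of ETS, YY1 and NRF1 was present in 45 members (67.2%) against 19.4% of all genes, and no member held all of them. The GC-rich SP1 motif GGGCGG stood at 50.7% against 38.2%, and the cyclic AMP motif TGACGTCA at 2.99% against 2.03%. Both strands were searched; a match is a description of letters, not of binding, and the windows of all genes were not matched on base composition.

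**Figure D1:**
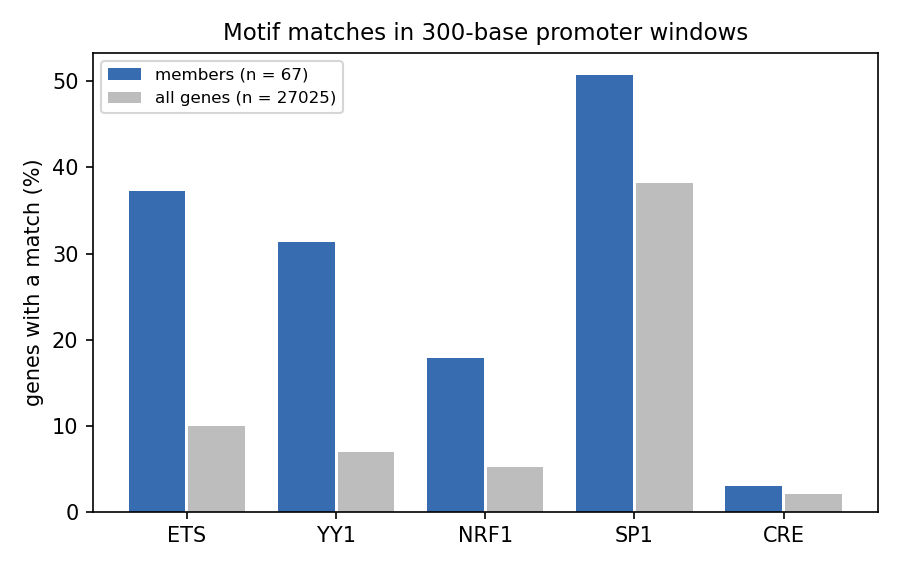
Share of genes with at least 1 match to each motif in the 300-base promoter window, for the 67 matched members (blue) and for all 27025 genes (grey). The members stand at 37.3%, 31.3% and 17.9% for ETS, YY1 and NRF1, against 9.93%, 6.96% and 5.19% of all genes.

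Promoters of 4 members show the motifs in place; each covers the 150 bases before the start, 5′ to 3′ on the gene's strand, with the motif in capitals. Mrpl12 encodes the flexible stalk protein of the large subunit, which also binds the mitochondrial RNA polymerase, and its NRF1 match begins at position -81, counted from -1 for the base before the start (chr11:120484487-120484636, plus strand). Mrpl3 and Mrps22, a core large-subunit protein and a mitochondria-specific small-subunit protein that are both mutated in human mitochondrial cardiomyopathy, have an ETS match at -19 and -11 (chr9:105053118-105053267, plus strand, and chr9:98601680-98601829, minus strand). Mrpl47, a protein near the exit of the peptide tunnel that gave the largest WY14643 difference of any member in control hearts, has a YY1 match at -90 (chr3:32736756-32736905, minus strand).
Mrpl12: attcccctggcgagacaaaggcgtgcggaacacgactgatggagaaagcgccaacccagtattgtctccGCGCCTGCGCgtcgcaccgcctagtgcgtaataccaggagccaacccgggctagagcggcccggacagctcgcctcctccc
Mrpl3: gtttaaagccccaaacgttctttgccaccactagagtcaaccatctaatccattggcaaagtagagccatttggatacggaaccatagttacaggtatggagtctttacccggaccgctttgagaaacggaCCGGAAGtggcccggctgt
Mrps22: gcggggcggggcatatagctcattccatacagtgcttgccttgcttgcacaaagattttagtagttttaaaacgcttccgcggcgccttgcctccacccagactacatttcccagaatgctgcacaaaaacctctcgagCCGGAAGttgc
Mrpl47: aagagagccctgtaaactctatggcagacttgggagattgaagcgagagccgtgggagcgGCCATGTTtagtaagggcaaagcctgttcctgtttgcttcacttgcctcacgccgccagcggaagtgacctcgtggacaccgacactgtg

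The motifs differ in where they lie. Of the 21 members with a YY1 match, 16 (76.2%) have one that begins after the start, against 35.1% of all genes with a YY1 match. For ETS the share was 9 of 25 members (36% against 25.4%), and for NRF1 it was 3 of 12 (25% against 18.0%). Mrpl47 has further YY1 matches at -242 and at 14, counted from 1 at the start, outside the stretch shown.

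Before the comparisons, the arrays themselves were set side by side. None of the 378 array pairs was identical, the median signal ranged from 60 to 77.8, and the ratio of 3' to 5' actin probe sets, a sign of RNA integrity, ranged from 1.09 to 1.82. The array of treated control replicate 7 had the highest actin ratio and the lowest correlation with the rest of its group (r = 0.933). Replicate 7 was the array least like its group in every group, with r from 0.933 to 0.944. All 8 cardiomyocyte markers were bright, Myh6 among them, while the atrial markers summed to between 3593.3 and 51569.9 per array, and the part of atrial tissue in the members' values was not tested. In whole heart, fewer cells of a type and less RNA per cell cannot be told apart.

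No member passed the test in any comparison. In limma's moderated test with Benjamini-Hochberg adjustment over all 45037 probe sets and a threshold of 0.05, the count of members was 0 for each strain comparison, for each treatment comparison and for the contrast between the 2 treatment effects. The whole table gave 1 probe set (0.00222%) for del337TR against control without treatment and 0 for the other comparisons. For none of the 76 members did the 7 values of 1 group lie wholly above or below those of the other. Over all probe sets the share whose groups did not overlap, higher and lower, was 0.0178% and 0.0511% for the strains untreated and 0.0533% and 0.0333% for WY14643 in control hearts. It was 0.0377% and 0.0355% for WY14643 in del337TR hearts and 0.0555% and 0.0511% for the strains under WY14643. The members were far from evenly split in direction in some comparisons. After the group means were removed, a member correlated with the mean of the other members at a median r of 0.65. The members are thus not separate observations, and neither a split nor a count at an unadjusted p tests the family. The comparisons share arrays: those of treated control hearts enter the WY14643 comparison in control, the strain comparison under WY14643 and the contrast between the treatment effects.

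WY14643 in control hearts went with slightly higher signals of most members. Of the 76, 66 stood higher in treated than in untreated control hearts and 10 lower, with a median difference of 0.12 on the log2 scale (8.50% on the linear scale), against a median of -0.03 over all genes. The median was 0.09 with quantile normalization and 0.18 with each array centred on its median, so its sign held under these scalings. At an unadjusted p under 0.05, 17 members (22.4%) were higher and 0 lower, against 2.39% and 4.36% of all probe sets; limma's adjusted p was 0.698 at the lowest. The 17 were 6 large-subunit proteins with a bacterial relative, 5 specific to mitochondria, 4 small-subunit proteins with a bacterial relative, Mrps18c and Mrps36; none was among the 9 small-subunit proteins specific to mitochondria.

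Mrpl47 had the largest difference. Its signal ran from 555.5 through a median of 639 to 830.4 in untreated control hearts and from 659.5 through 807.7 to 1080.6 in treated ones, a log2 difference of 0.34 ± 0.12 (SE). Every treated heart was above the untreated median, but the groups overlapped between 659.5 and 830.4. Mrpl14, a bacterial-type protein at the face where the subunits meet, stood at 1556.8 to 2263.8 (median 1922) untreated and at 1726.3 to 3426.7 (median 2278.8) treated. Its difference was 0.30 ± 0.12, and the value of 3426.7 came from treated control replicate 7. Mrps28, a small-subunit protein with a bacterial relative, stood at 1323.2 to 1788.4 (median 1442.5) untreated and at 1501.3 to 2120.7 (median 1729.1) treated, a difference of 0.23 ± 0.09. Mrpl42 and Mrpl55, both specific to the mitochondrial large subunit, differed by 0.22 ± 0.09 and 0.27 ± 0.11. The adjusted p in limma lay between 0.698 and 0.713 for these 5 genes.

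The probe set chosen for Mrpl15, a large-subunit protein with a bacterial relative, differed by 0.20 ± 0.08, while 3 other bright probe sets of the gene gave 0.07, 0.10 and 0.09. Over the 42 members with several probe sets, the 80 other probe sets had the sign of the chosen one in 50 cases, with a median of 0.07. For the strains under WY14643 it was 46 cases, with a median of -0.06, and in the other comparisons 44 to 49. No member had probe sets that passed an unadjusted p under 0.05 in opposite directions. The genes known from disease gave small positive differences: Mrpl3 0.21 ± 0.11, Mrps16 0.21 ± 0.12, Mrps22 0.11 ± 0.09, Mrpl12 0.15 ± 0.14 and Mrpl44, a protein with an ribonuclease-like fold that is mutated in cardiomyopathy, 0.05 ± 0.10. The 3 genes of the Mrps18 family are paralogs whose proteins sit at different sites, that of Mrps18a in the large subunit. They gave 0.21 ± 0.12 for Mrps18a, 0.10 ± 0.14 for Mrps18b and 0.23 ± 0.11 for Mrps18c. Among the 10 members on the negative side, Mrpl45, which ties the ribosome to the inner membrane, was farthest from 0 at -0.13 ± 0.11.

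**Figure D2:**
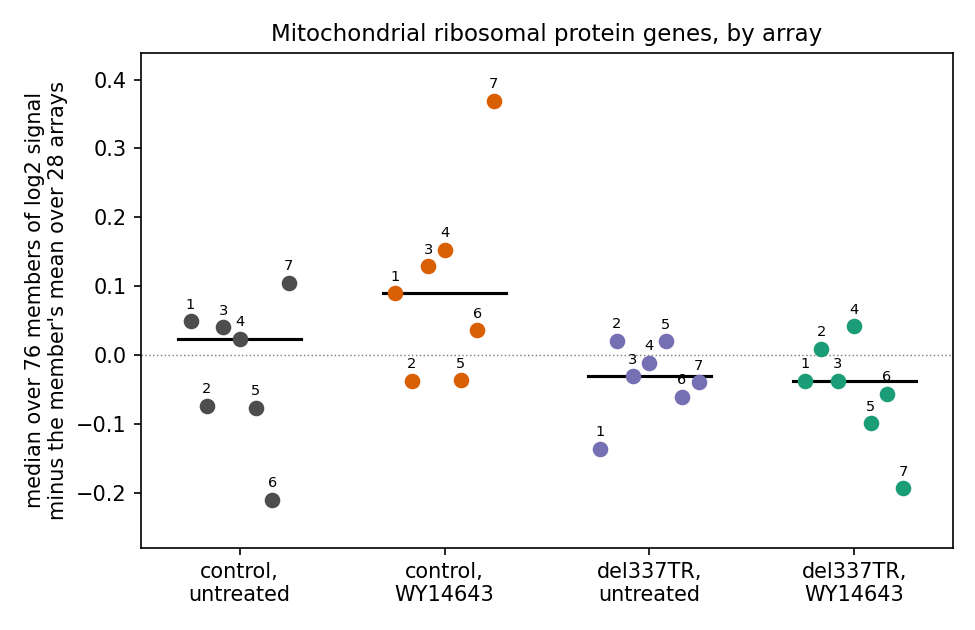
Each point is 1 array, plotted as the median over the 76 members of the log2 signal minus the member's mean over all 28 arrays; numbers are replicates and bars are group medians. Treated control replicate 7 stands at 0.37, above every other array, and the other 6 treated control hearts lie between -0.04 and 0.15.

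Treated control replicate 7 stood apart in this pattern. The median of the members on that array was 0.37 above their means over all arrays, and the next highest array stood at 0.15. The same array had the actin ratio of 1.82, above every other array. Without it, 60 members were higher and 16 lower, with a median of 0.08. At an unadjusted p under 0.05, 3 members were then higher, against 1.73% of all probe sets. With replicate 7 of every group left out, 18.4% of the members were higher at that threshold, against 996 of 45037 probe sets. The count of 17 also depended on other arrays: it was 9, 10, 8 and 6 without untreated control replicate 2, 4, 5 or 6, and 11 and 9 without treated control replicate 1 or 4, with 2.12% to 2.26% of all probe sets higher in these fits. Fitted on the control arrays alone, it was 4, against 2.16%. All 8 cardiomyocyte markers were also higher with WY14643 in control hearts, with a median difference of 0.16 and a summed signal of 106731 to 136282 per array against 91438.4 to 126280 untreated; with quantile normalization 5 of the 8 were higher, with a median of 0.02. Of 7 fibroblast markers, 2 were higher, with a median of -0.23. The part of cell composition and of RNA integrity in the members' values was not tested.

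In del337TR hearts WY14643 left the members evenly divided. Of the 76, 34 stood higher and 42 lower in treated hearts, with a median of -0.00, the same as over all genes. The split was 38 and 38 with quantile normalization and 23 and 53 with arrays centred on their medians, with a median of -0.04. No member reached an unadjusted p under 0.05, against 2.95% of all probe sets higher and 2.83% lower. In limma no member had an adjusted p below 0.883. The 95% intervals of the members lay between -0.50 and 0.51. The members with the smallest p were Mrps35, a mitochondria-specific small-subunit protein, at -0.15 ± 0.08, Mrpl23, a protein at the exit of the peptide tunnel, at -0.12 ± 0.08, and Mrps11, which lies on the platform of the small subunit, at -0.17 ± 0.11. Without treated del337TR replicate 7, whose Mrps11 signal was the lowest of all, the value of Mrps11 was -0.07. Mrpl48 gave -0.16 ± 0.11, Mrpl45 gave 0.16 ± 0.11 and Mrps23 gave 0.10 ± 0.07. Of the cardiomyocyte markers, 7 of 8 were higher here, with a median of 0.10, but 4 of 8 with quantile normalization. Of 4 adipocyte markers measured, 3 were lower with WY14643, all 3 at an unadjusted p under 0.05, with a median of -1.19. Of the 4, Adipoq, Cidec and Retn were dim, with median signals of 60.85, 21.15 and 100.65 over all arrays. The part of adipocyte RNA in the members' values was not tested.

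Without treatment, the median difference between the strains was near 0 in these genes. In del337TR hearts 30 members were higher and 46 lower than in control hearts, with a median of -0.03 against 0.00 over all genes; the median was -0.03 and -0.01 under the other scalings. No member was higher at an unadjusted p under 0.05 and 1 was lower, against 1.66% and 2.35% of all probe sets. That gene was Mrpl45. Its signal ran from 709.5 through 744.9 to 908.5 in control hearts and from 568.8 through 604.8 to 720.6 in del337TR hearts. The ranges met only between 709.5 and 720.6, and the log2 difference was -0.30 ± 0.11 with an adjusted p of 0.999 in limma. Under WY14643 the strains did not show this gap in Mrpl45, at 541.1 to 858.4 and 585.2 to 850.1, a difference of -0.01 ± 0.11. For Mrpl45 the effect of WY14643 in del337TR minus that in control was 0.29 ± 0.15, with an adjusted p of 0.956. Next by p were Mrpl15 at 0.15 ± 0.08, Mrpl37 at -0.24 ± 0.13, Mrps5 at -0.20 ± 0.12, Mrpl18 at -0.16 ± 0.10 and Mrps9 at -0.12 ± 0.09. All 4 atrial markers were higher in del337TR hearts here (median 2.22, sums of 12753 to 50282.3 against 9475.2 to 34811.6). All 4 measured adipocyte markers (median 0.51), 6 of 7 fibroblast markers (median 0.12) and all 8 cardiomyocyte markers (median 0.04) were higher. Of the nuclear respiratory chain genes 72 of 86 were higher (median 0.05), as were 40 of 46 cytosolic ribosomal proteins (median 0.07). The part of other cell types' RNA was not tested.

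The widest split between the strains was under WY14643. Compared with treated control hearts, treated del337TR hearts had lower signals of 67 members and higher signals of 9, with a median difference of -0.16 (-10.4% on the linear scale) against 0.02 over all genes. The median was -0.14 with quantile normalization and -0.24 with arrays centred on their medians. At an unadjusted p under 0.05, 25 members (32.9%) were lower and 0 higher, against 3.61% and 5.25% of all probe sets, or 4.58% of all genes lower. The lowest adjusted p of a member was 0.428 in limma. By symbol, 40 of 47 Mrpl and 27 of 29 Mrps genes were lower, each with a median of -0.16, and 12 and 13 of them were lower at an unadjusted p under 0.05; the 2 sets were not tested against each other. By role, the median was -0.15 for large-subunit proteins with a bacterial relative, -0.15 for those specific to mitochondria, -0.13 for small-subunit proteins with a bacterial relative, -0.19 for those specific to mitochondria and -0.24 for the Mrps18 family.

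**Figure D3:**
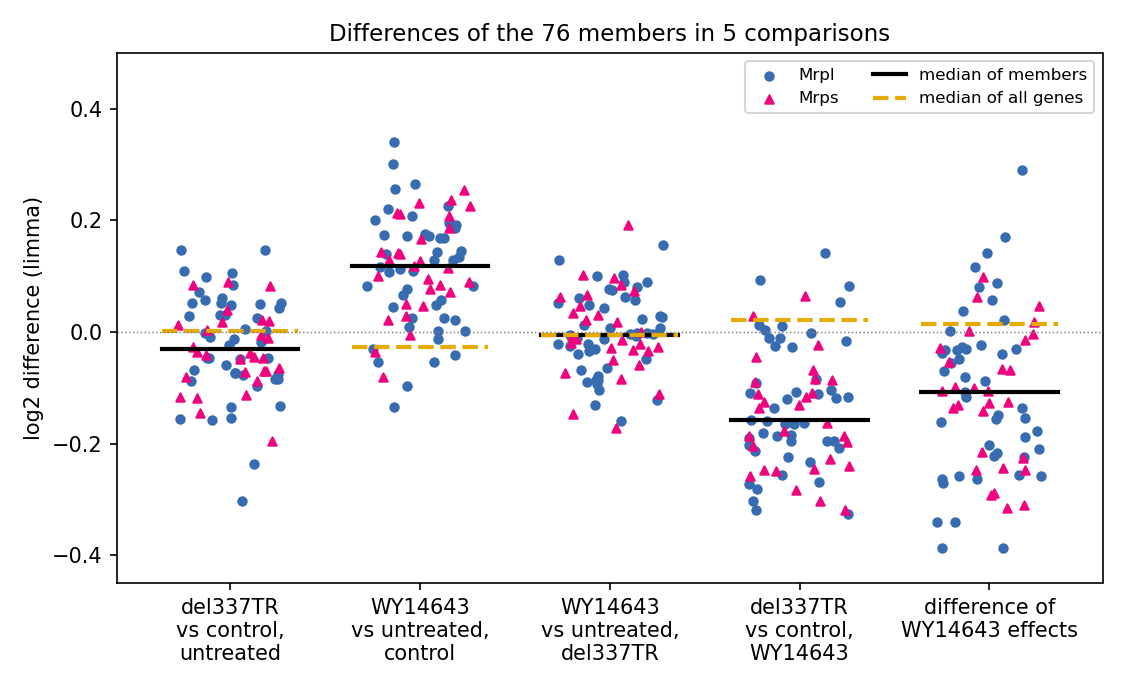
Each point is the log2 difference of 1 member in 1 of the 5 comparisons (circles Mrpl, triangles Mrps); black bars are the medians of the 76 members and dashed bars those of all 18193 genes. The members' medians stand at 0.12 for WY14643 in control hearts and at -0.16 for del337TR against control under WY14643, and near 0 in the comparisons without treatment and within del337TR.

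Mrpl23 had the smallest p. Its signal ran from 2013.8 through 2158.4 to 2549.2 in treated control hearts and from 1715.1 through 1782.3 to 2334.1 in treated del337TR hearts, a difference of -0.23 ± 0.08. Of the 7 del337TR hearts, replicate 4 alone reached into the control range, at 2334.1. Mrpl48, a mitochondria-specific protein, stood at 1277.4 to 1982.9 (median 1405.3) in treated control hearts and at 1000.6 to 1406.6 (median 1139.7) in treated del337TR hearts. Its difference was -0.30 ± 0.11, and the groups overlapped between 1277.4 and 1406.6. Mrps28 differed by -0.24 ± 0.09, from 1501.3 to 2120.7 against 1300.6 to 1709.2. Mrps24, a small-subunit protein at the entry of the message channel, stood at 1607 to 2636.3 against 1307 to 2226.2, a difference of -0.30 ± 0.11. Mrps11 stood at 438.3 to 593.4 against 282.4 to 496.6 (-0.32 ± 0.11) and Mrpl14 at 1726.3 to 3426.7 against 1548.2 to 2265.7 (-0.33 ± 0.12). The ranges of all of these genes overlapped, and their adjusted p in limma lay between 0.428 and 0.444.

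**Figure D4:**
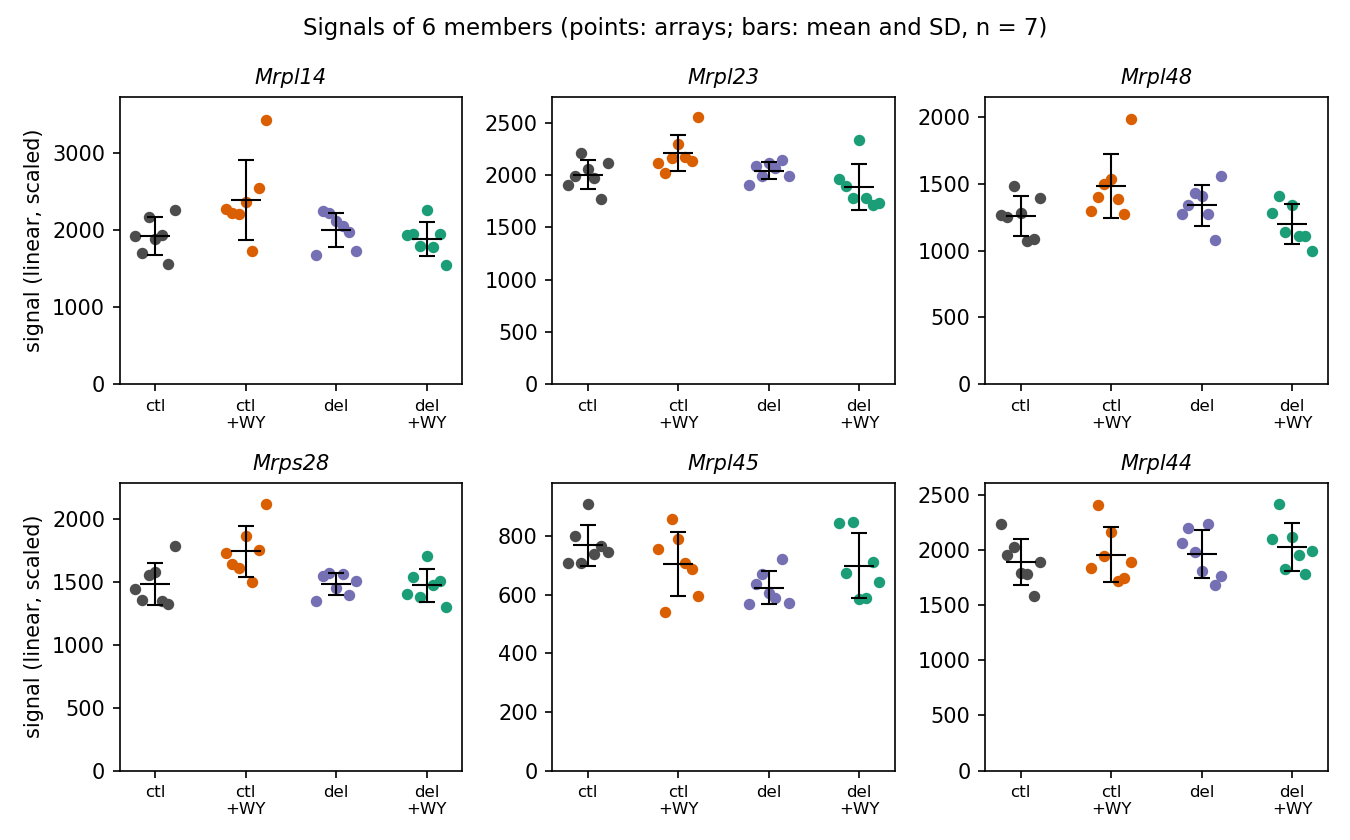
Linear signal of 6 members on every array, with the mean and SD of each group of 7 (ctl, control; del, del337TR; WY, WY14643). Mrpl23, Mrpl48, Mrps28 and Mrpl14 have their highest group mean in treated control hearts, Mrpl45 has its lowest in untreated del337TR hearts, and the group means of Mrpl44 differ by less than the SD.

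The genes known from disease were mostly on the lower side: Mrpl3 at -0.28 ± 0.11, Mrps16 at -0.28 ± 0.12, Mrps22 at -0.19 ± 0.09 and Mrpl12 at -0.16 ± 0.14. Mrpl44 stood at 0.05 ± 0.10, and its signal had nearly the same range in all groups, from 1580.5 to 2239, 1715.1 to 2404.3, 1679.9 to 2238 and 1778.1 to 2419.1. The Mrps18 family gave -0.24 ± 0.12 for Mrps18a, -0.11 ± 0.14 for Mrps18b and -0.26 ± 0.11 for Mrps18c. The 9 members on the higher side, Mrpl10, Mrpl20, Mrpl32, Mrpl44, Mrpl50, Mrpl52, Mrpl54, Mrps6 and Mrps27, lay between 0.00 and 0.14, and were named after their values were seen.

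Single arrays also bore on this comparison. Without treated control replicate 7, 64 members were lower, the median was -0.10, and 11 were lower at an unadjusted p under 0.05, against 2.72% of all probe sets. Without treated del337TR replicate 7 that count was 15, against 3.17% of all probe sets. With replicate 7 of every group left out, the arrays least like their groups, 64 were lower with a median of -0.08 and 3 passed the unadjusted threshold, a share (3.95%) near the 2.56% of all probe sets. Fitted on the 2 treated groups alone, 12 did, against 2.72%. Of the cardiomyocyte markers 3 of 8 were higher and the median was -0.02, with summed signals of 95689.4 to 152481 in treated del337TR hearts; with arrays centred on their medians all 8 were lower, with a median of -0.10. All 7 fibroblast markers were higher in treated del337TR hearts, with a median of 0.28 and sums of 18499.1 to 22538.7 against 16350.7 to 21175.5, and none passed the test; without the arrays least like their groups that median was 0.11. All 4 atrial markers were higher (median 0.90, sums of 9224.9 to 51569.9 against 3593.3 to 31478), as were 4 of 5 skeletal muscle markers (median 0.45). Of the skeletal muscle markers, Myh1, Myh4 and Tnnt3 reached at most 44, 53.8 and 37 on any array, below the lowest array median of 60. The skeletal muscle median thus rests partly on near-floor signals. The other skeletal muscle markers, Acta1 and Ckm, were bright on every array, at 4612.8 to 14564.7 and 10681.7 to 16414.2. Whether their signal came from skeletal muscle was not tested. All 4 measured adipocyte markers were lower (median -0.81, 3 at an unadjusted p under 0.05), although their summed signals overlapped at 8300.2 to 13820.9 against 8148.5 to 10911.5. Fabp4, at 7398.4 to 13714.3 over all arrays, made up most of that sum. The dim Adipoq, Cidec and Retn, with medians of 60.85, 21.15 and 100.65, hardly enter it. Of the endothelial markers 5 of 6 were higher (median 0.12), and of the leukocyte markers 5 of 6 (median 0.14). The part of other cell types' RNA in the members' values was not tested.

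Whether WY14643 acted differently in the 2 strains was tested directly, as its effect in del337TR hearts minus that in control hearts. It was below 0 for 61 members and above 0 for 15, with a median of -0.11 against 0.01 over all genes, and with medians of -0.10 and -0.20 under quantile normalization and median centring. With the signals as deposited it was also below 0 for 79 of 86 nuclear respiratory chain genes (median -0.13). For cytosolic ribosomal proteins it was below 0 in 37 of 46 (median -0.11). With that scaling, a shift of this size was thus not particular to the members. The medians of the related sets for WY14643 in control hearts moved with the scaling, as given below. Whether these sets differ was not tested. At an unadjusted p under 0.05, 6 members were lower (7.89%) and 0 higher, against 1.65% and 3.26% of all probe sets, with limma's adjusted p at 0.956 or above. The 6 were Mrps35 at -0.29 ± 0.11, Mrpl48 at -0.39 ± 0.15, Mrpl15 at -0.26 ± 0.11, Mrpl23 at -0.26 ± 0.11, Mrpl14 at -0.39 ± 0.17 and Mrpl3 at -0.34 ± 0.16. For Mrps35 the treated control hearts ran from 999.9 to 1290.5 and the treated del337TR hearts from 843.2 to 1035.4, with untreated hearts at 851.9 to 1115.7 and 955.3 to 1130.8. The WY14643 difference of Mrps35 was 0.14 ± 0.08 in control and -0.15 ± 0.08 in del337TR hearts. With arrays centred on their medians 17 members passed the unadjusted threshold, and without treated control replicate 7 there were 4, with 51 below 0 and a median of -0.08.

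**Figure D5:**
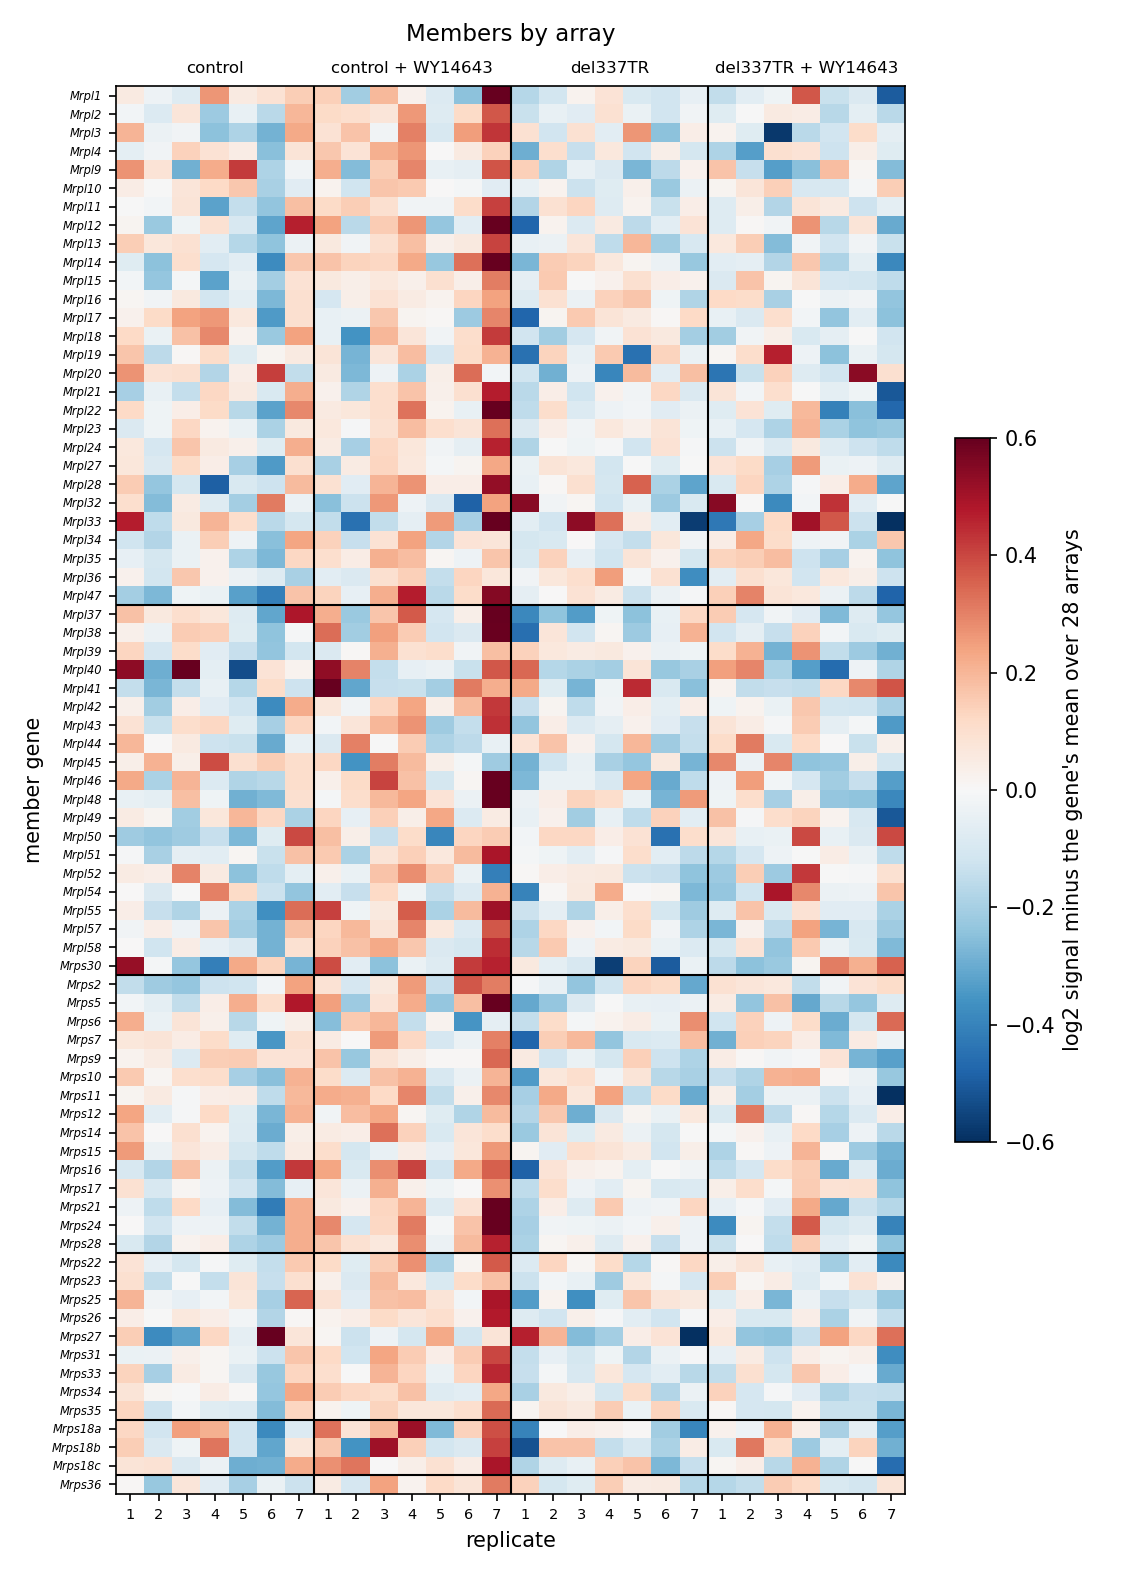
Log2 signal of each of the 76 members minus its mean over 28 arrays, with arrays in columns by group and replicate and members in rows by role (lines separate the roles, in the order given in the text); the colour scale ends at -0.6 and 0.6. Some columns lean to 1 colour: treated control replicate 7 is above the members' means for 70 of 76, and untreated control replicate 6 is mostly below. Others are mixed, such as untreated del337TR replicate 4, above the means for 34 of 76.

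The members varied together from heart to heart. After the group means were removed, the correlation over the 28 arrays had a median of 0.34 across the 2850 pairs of members, and 82.0% of pairs were above 0. A member correlated with the mean of the others at a median r of 0.65, whereas the 18117 other genes correlated with the mean of the members at a median of -0.03. The genes closest to the family mean were Mrpl12 at 0.89, Mrpl43 and Mrpl22 at 0.88, and Mrps33 at 0.87. Farthest were Mrps27, a small-subunit protein that binds RNA, at -0.27 and Mrpl20 at -0.24. Genes of the nuclear respiratory chain followed the family mean with a median r of 0.58 and cytosolic ribosomal proteins with 0.45; mitochondrial translation factors had 0.20, tRNA synthetases 0.21, assembly factors 0.25 and genes of mitochondrial DNA upkeep and transcription 0.19. These arrays share scaling and RNA quality, and treated control replicate 7 is high for most members, so the values describe these hearts and carry no test.

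Related genes were set beside the members. Their counts too are at an unadjusted p under 0.05. The nuclear genes of the respiratory chain, the machinery that mitochondrial translation serves, were higher with WY14643 in control hearts for 82 of 86 (median 0.16, 19 higher at that p), led by Cox8a at 0.34 ± 0.11 and Cox6a1 at 0.32 ± 0.11. With quantile normalization that median was 0.04 with 3 at that p, with arrays centred on their medians 32 were at that p, and without the arrays least like their groups 9 were. Under WY14643 78 of 86 were lower in del337TR hearts, with a median of -0.09 and 7 at that p, and without the arrays least like their groups 62 were lower, with a median of -0.03 and 1 at that p. With arrays centred on their medians 14 were at that p. Cytosolic ribosomal proteins were higher with WY14643 in control hearts for 39 of 46 (median 0.11), but for 24 of 46 with quantile normalization (median 0.00). Under WY14643 the strains differed in them by a median of -0.03, with 30 lower and 1 of them at that p. That median was -0.01 with quantile normalization and -0.11 with median centring, and 0.01 without the arrays least like their groups. Whether the members' shift under WY14643 differs from that of the cytosolic proteins was not tested.

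Of 17 genes that maintain or transcribe mitochondrial DNA, 16 were lower in treated del337TR than in treated control hearts, with a median of -0.16 and 7 at that p, or 3 without the arrays least like their groups. They were led by Polg2, the accessory subunit of the mitochondrial DNA polymerase, at -0.40 ± 0.12, Ssbp1, the single-strand binding protein, at -0.29 ± 0.10, and Top1mt, a topoisomerase, at -0.40 ± 0.16. Of 24 assembly factors 20 were lower (median -0.11, 3 at that p, or 7 with arrays centred on their medians): Mtg1, a GTPase of the large subunit, at -0.30 ± 0.09, Fastkd2 at -0.35 ± 0.12 and Mettl17 at -0.60 ± 0.23. Of the 19 measured tRNA synthetases and related enzymes 13 were lower (median -0.04, 4 at that p, 2 without the arrays least like their groups), with Tars2, which charges tRNA with threonine, at -0.36 ± 0.10. The list drawn up for translation factors also holds Hibch, an enzyme of valine breakdown, and of its 13 measured genes 9 were lower (median -0.11). The 3 at that p were the elongation factor Tufm at -0.20 ± 0.08, the rescue factor Mtres1 at -0.27 ± 0.10 and Hibch itself at -0.25 ± 0.09, and without the arrays least like their groups none was. The adjusted p of these named genes in limma was between 0.403 and 0.473. Of the mitochondrially encoded subunits 1 of 14, ND5, was measured, at -0.03 ± 0.10. Of the 4 measured ribosome proteins under other symbols all were lower, with a median of -0.15.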

How the data were processed

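RNA from 28 mouse hearts was measured on 1-colour arrays, 1 array per animal. The deposited values are linear intensity values, 1 per probe set. The submitters' processing notes name RMA, but the values are not on a log scale and have the same 2% trimmed mean (250.0) on every array, so they were treated as globally scaled signals. Software version and batch, not given in the sources used here, were not modelled. Control probe sets were left out (64 of 45101). The 3 values of 0 were set to 0.1, the next value up, before log2 was taken. One limma 3.58.1 fit (R 4.3.3) of 4 group means had 24 residual degrees of freedom, and p-values were adjusted over 45037 probe sets. Fold differences are on the log2 scale. Probe sets were named through the platform annotation and places taken from RefSeq on GRCm38.p6. All 76 members had a mean signal above the 40th percentile.

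The members, the related lists and the markers were chosen with earlier results of these data known. The members named are the 6 with the smallest p per comparison, the 8 brightest and 4 dimmest probe sets, the Mrps18 family and 5 genes known from disease or transcription; from related lists up to 3 genes per comparison. Outside this rule, the members closest to and farthest from the family mean and the 9 on the higher side in 1 comparison were named after their values were seen. The counts at an unadjusted p and the fits without the array least like its group were added after seeing the data. The fit was tested on simulated data. No result of that test for differences as small as those of the members is given here. Precision is limited by the 7 arrays per group, and the arrays give no counts.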

Additional observations from a re-analysis of the deposited data

Results flagged for a closer look

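Of 132 sets of 7 arrays examined, those of 32 named members and of the per-array median of the members in each group, 8 (6.06%) held an array far from the other 6, where chance gives about 1 in 20. In treated control replicate 7 the signal was far above the other treated control hearts for Mrpl1 (705.9, others 367.9 to 500.8), Mrpl15 (3558.8, others 2941.6 to 3080.9), Mrpl48 (1982.9, others 1277.4 to 1539.5) and Mrps35 (1290.5, others 999.9 to 1118.4). In treated del337TR hearts, Mrpl23 was high in replicate 4 (2334.1, others 1715.1 to 1963.3) and Mrps11 was low in replicate 7 (282.4, others 420.6 to 496.6). In untreated del337TR replicate 1, Mrps16 (1012.2, others 1358.3 to 1499.9) and Mrps24 (1499.8, others 1682 to 1759) were low.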

How the results depend on the processing

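No member passed the adjusted threshold under any alternative run, and the 30 single-member differences kept their direction and their side of the threshold in all 1104 alternative values (adjusted p in limma 0.257 to 1.00). This says little of robustness. The 30 were chosen for the smallest p per comparison, and their adjusted p in the main limma fit was 0.428 or above, far from the threshold. Leaving out an array of a group not compared also leaves a difference unchanged. Counts moved more. Leaving out 1 array at a time, the probe sets past the threshold ranged from 0 to 1 for the strains untreated and for WY14643 in either strain, and stayed at 0 for the strains under WY14643 and for the difference of effects. The median of the members ranged from -0.05 to 0.00 for the strains untreated, 0.08 to 0.15 for WY14643 in control, -0.02 to 0.02 in del337TR, -0.18 to -0.10 for the strains under WY14643 and -0.14 to -0.08 for the difference of effects. Members at an unadjusted p under 0.05 ranged from 0 to 1 higher and 1 to 3 lower (strains untreated; 3 without control replicate 6), 3 to 23 higher (WY14643 in control), 0 to 2 lower (WY14643 in del337TR; 2 without treated replicate 4), 11 to 31 lower (strains under WY14643), and 0 to 1 higher and 4 to 14 lower (difference of effects; 14 without control replicate 7, 13 without treated control replicate 5, 12 without treated del337TR replicate 4, 10 without treated control replicate 2).

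The probe set past the threshold for the strains untreated fell to 0 with probe sets above the 40th percentile, with sex as a covariate, in the groups compared alone and without the array least like its group. For WY14643 in control the count of probe sets became 1 with 16 added to the signal and 3 in the groups compared alone, and for the difference of effects 1 with 16 added. Members higher at the unadjusted threshold (WY14643 in control) numbered 9 with quantile normalization and 4 in the groups compared alone. Those lower (strains under WY14643) numbered 12 in the groups compared alone and 3 without the array least like its group. With median centring 21 were higher (WY14643 in control) and 35 lower (strains under WY14643), against 4.10% and 6.58% of all probe sets. With trend and robust moderation these counts were 23 and 31, against 2.88% and 4.12%. For the difference of effects 17 were lower with median centring, 11 above the percentile, 14 with trend and robust moderation and 3 without the least like arrays, and 1 was higher with quantile normalization and with trend and robust moderation. For the strains untreated 1 was higher above the percentile, with trend and robust moderation and without the least like arrays. For WY14643 in del337TR 1 was lower above the percentile and with trend and robust moderation. The cause was not tested. The difference of effects has no fit in fewer groups.

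The labels share replicate numbers across groups but do not say that they pair animals, and residuals of same-numbered arrays correlated at a median r of 0.03 (42 pairs, -0.12 to 0.19) against -0.00 for the other 252. With the replicate block the probe set past the threshold became 0, and 14 members were higher (WY14643 in control), 26 lower (strains under WY14643) and 7 lower (difference of effects) at the unadjusted threshold.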
